A study of Homo sapiens with 32 samples.

Results

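The collagen genes were the 44 rows of the 18980 listed coding genes whose symbol had the form of a collagen alpha chain (COL, a type number, A and a chain number), and they were followed through 20 RNA-seq libraries of RH4 cells, a long-established line of human alveolar rhabdomyosarcoma. Of these, 16 came from cells given A485, dCBP, IHK-44 or JQAD, described by the series as inhibitors or degraders of CBP and p300, with 4 per compound: 100 nM and 1000 nM, each harvested after 2 h and after 6 h. The remaining 4 were controls, from DMSO (solvent) and from NT (an abbreviation left unexplained in the labels), again after 2 h and 6 h. Conditions were not replicated, so the 4 libraries of a compound stood in for replicates, and nothing in the labels says that they came from separate cultures. A485 is known as an inhibitor of the acetyltransferase domain, and dCBP and JQAD are known as degraders, with JQAD aimed mainly at p300. IHK-44 is known here only by its code. The other 12 samples of the series (11 ChIP-seq and 1 ChRO-seq) were not analysed here.

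Collagens are secreted proteins in which 3 alpha chains wind into a triple helix, so the balance between chain genes matters as well as their level. Fibrillar collagens such as types I, III and V bear tension, type IV chains build the sheet of the basement membrane, type VI chains form beaded filaments beside cells, and the fibril-associated types decorate the surface of fibrils. Muscle cells sit in a basement membrane and produce part of it. CBP and p300 are related acetyltransferases that act as coactivators at enhancers and promoters, with collagen genes among the genes they are known to help transcribe in fibroblasts.

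The libraries held between 13466631 and 16799327 counts on coding genes, so 1 count equals 0.0595 to 0.0743 CPM (counts scaled to a sum of 1000000 per library). Of the markers of the labelled cell type, 8 of 10 (skeletal muscle and rhabdomyosarcoma genes) reached a mean of 1 CPM in the DMSO and NT libraries, with MYF5 under 0.5 CPM in all 20. The summed level of this marker list was 3693.9 to 4025.3 CPM in the controls and reached down to 1629.8 CPM in treated libraries. Endothelial and epithelial marker lists had no member at a mean of 1 CPM in the controls and summed to at most 1.74 CPM in any library. Of the 8 fibroblast markers 4 reached that level, and the list summed to 69.1 to 81.0 CPM in the controls. PDGFRB was the highest of them, and LUM, POSTN and TCF21 were under 0.5 CPM in all libraries. Of the 5 cartilage and bone markers 2 reached it (SOX9 and RUNX2), with a sum of 93.9 to 102.1 CPM in the controls. Genes with a mean of at most 0.2 CPM over the 20 libraries summed to 121.5 to 177.6 CPM in controls and 128.7 to 213.0 CPM in treated libraries.

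Of the 44 collagen genes, 29 reached a mean normalised count of at least 1 CPM over the 4 DMSO and NT libraries, and 33 passed the filter on low counts used for testing. RH4 cells carried mainly fibrillar and type IV collagen transcripts. Per length, COL3A1, the single chain gene of type III collagen, stood far above the rest, at 497.5 ± 36.3 TPM (transcripts scaled for length and library; SD, n = 4), rank 121 of all coding genes. COL5A1, a chain of the type V collagen that sets fibril diameter, followed at 141.1 ± 11.8 TPM. The basement membrane chains COL4A2 and COL4A1 had 93.2 and 81.5 TPM, the type VI chain COL6A2 had 37.3 TPM, and COL18A1, whose C-terminal fragment is endostatin, had 22.6 TPM. COL2A1, the cartilage fibril collagen, and the fibril-associated COL12A1, COL19A1 and COL16A1 lay between 6.52 and 8.12 TPM and complete the 10 highest.

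**Figure D1:**
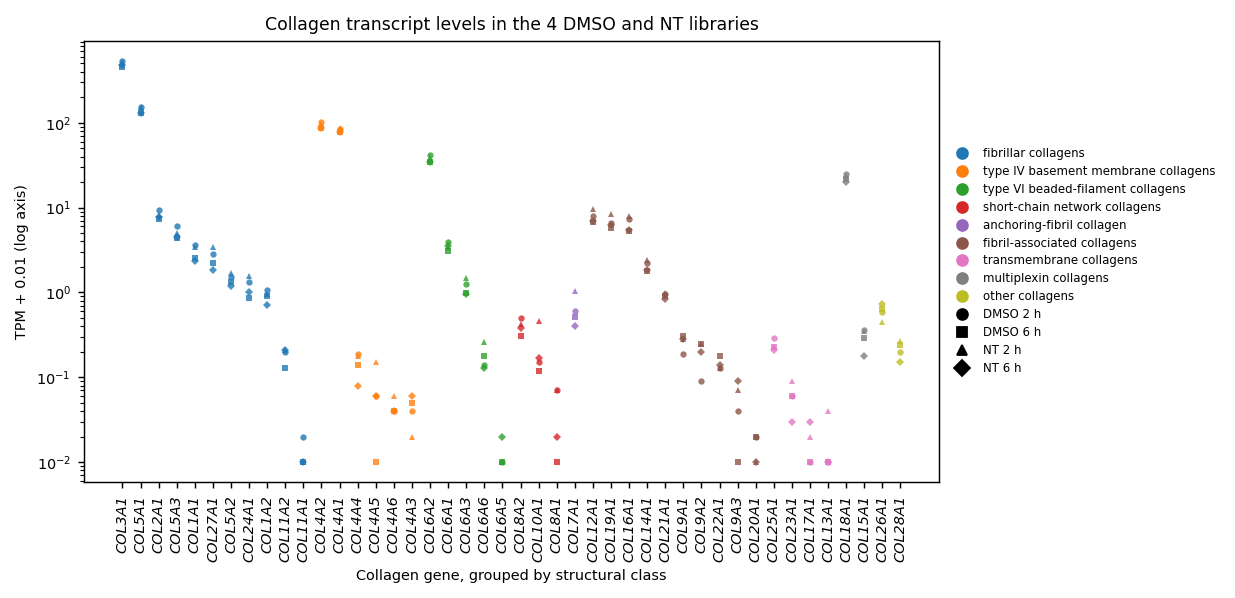
TPM plus 0.01 (log axis) of each of the 44 collagen genes in the 2 DMSO and 2 NT libraries, 1 symbol per library, grouped and coloured by structural class. COL3A1 stands highest, at a mean of 497.5 TPM, and 11 genes, from 6 of the 9 classes, did not exceed 10 counts in any library.

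The classes were filled unevenly. The 11 fibrillar genes summed to 661.0 TPM on average, and the 6 type IV genes to 174.9 TPM, against 927.9 TPM for all 44. COL3A1 alone made up 52.9 to 54.4% of the summed collagen TPM in the 4 control libraries. COL4A1 and COL4A2, which assemble together, had similar levels, while other partners were unequal. COL1A1 had 2.96 TPM and COL1A2 0.907 TPM, although type I is the main collagen of most connective tissue, and COL5A2, the usual partner of COL5A1, had 1.43 TPM. Of the type VI chains, which assemble as COL6A1, COL6A2 and COL6A3, COL6A1 had 3.49 TPM and COL6A3 1.17 TPM beside the 37.3 TPM of COL6A2. The genes below the level of 1 CPM were COL11A1, COL11A2, COL4A3, COL4A5, COL4A6, COL6A5, COL8A1, COL9A2, COL9A3, COL13A1, COL17A1, COL20A1, COL22A1, COL23A1 and COL28A1. COL4A3, COL4A5, COL4A6, COL6A5, COL8A1, COL9A3, COL11A1, COL13A1, COL17A1, COL20A1 and COL23A1 also failed the filter and were not tested. None of these 11 exceeded 10 counts in any library.

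The summed level of all collagens moved little at 2 h and was lower in most treated libraries at 6 h. It was 5572.1 to 5700.2 CPM in the 4 controls, 5493.3 to 5910.7 CPM in the 8 treated libraries at 2 h, and 4804.9 to 5461.9 CPM in the 6 libraries treated with A485, dCBP or IHK-44 for 6 h. JQAD at 6 h gave 5262.5 CPM at 100 nM and 5981.3 CPM at 1000 nM, so these libraries lay on either side of the controls. COL3A1 was 43.9 to 50.2% of the collagen CPM in every library and weighs heavily in these sums. In such bulk libraries, fewer cells of a kind and less RNA per cell cannot be told apart.

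The first comparison asked which collagen genes each compound changed over its 4 libraries. Against DMSO, dCBP lowered COL1A2, COL14A1 and COL25A1 and raised COL11A2, and IHK-44 lowered COL14A1, while A485 and JQAD gave no call. These are 4 of 33 for dCBP, against 23.7% of all 13260 genes tested, and 1 of 33 for IHK-44, against 16.9% of all genes, 9.21% lower and 7.74% higher (edgeR's quasi-likelihood test, Benjamini-Hochberg adjusted p under 0.05 over all genes tested). For A485 the count was 0 of 33 (3 at an unadjusted p under 0.05, 1 with DESeq2, 0 with limma), against 0.271% of all genes, 0.158% lower and 0.113% higher. For JQAD it was 0 of 33 (1 at an unadjusted p under 0.05, 0 with DESeq2, 0 with limma), against 0.0% of all genes, and NT against DMSO also called 0 of 33 (0 unadjusted, 0 with DESeq2 and limma), against 0.0%. The share of collagens called was thus below that of all genes for dCBP and IHK-44. The median fitted log2 change of the 33 collagens was -0.14 for dCBP and -0.22 for IHK-44, beside 0.05 and 0.04 for all genes, and 28 and 29 of the 33 values were below 0.

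COL1A2 encodes the second chain of type I collagen. It had 5.04 and 4.90 CPM in DMSO at 2 h and 6 h and 4.43 and 3.73 CPM in NT. With dCBP it had 3.09 CPM (100 nM) and 3.10 CPM (1000 nM) at 2 h, and 0.991 and 1.03 CPM at 6 h. All 4 dCBP libraries lay below all 4 controls, and both 6 h libraries lay lowest of the 20. The fitted change was a fall by 1.47 on the log2 scale (standard error 0.42, adjusted p = 0.0213, edgeR). With IHK-44 it had 3.82 and 3.04 CPM at 2 h and 2.08 and 1.5 CPM at 6 h, at 100 nM and 1000 nM. Its partner COL1A1 had 14.1 to 20.0 CPM in controls and 12.2 to 21.8 CPM with dCBP, so those groups overlapped.

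COL14A1 and COL25A1 are less familiar collagens. COL14A1, a fibril-associated collagen that regulates fibril growth, had 16 to 18.6 CPM in the 4 controls. With dCBP it had 15.2 and 15.7 CPM at 2 h and 7.65 and 7.52 CPM at 6 h, and with IHK-44 14.8 and 15.9 CPM at 2 h and 8.81 and 8.66 CPM at 6 h (100 nM first). The 2 h libraries lay just under the lowest control and the 6 h libraries far under it. The fitted fall was 0.70 ± 0.22 (SE) for dCBP (adjusted p = 0.0293, edgeR) and 0.64 ± 0.21 for IHK-44 (adjusted p = 0.0497, edgeR), in log2 units. COL25A1, a transmembrane collagen needed for motor nerves to reach muscle, had 1.44 to 1.92 CPM in controls and 0.212 CPM, or 3 counts, with 100 nM dCBP at 6 h. Its other dCBP libraries had 1.03 to 1.33 CPM. The dCBP call rests on few counts (fall by 1.16, SE 0.41, adjusted p = 0.0497, edgeR). It was lost without either DMSO library, either 1000 nM dCBP library or the 100 nM 6 h library (log2 change then -0.86, adjusted p = 0.0885, edgeR). Fitted changes against DMSO with A485, IHK-44 and JQAD were -0.72, -0.76 and -0.67, none of them called. At 6 h the COL25A1 ratio of CPM to the controls was 0.556, 0.547 and 0.589 in that order, and 0.362 with dCBP. At 2 h these ratios were 0.888, 0.912, 0.841 and 0.745. Exact 95% intervals, which cover counting error only, left out 1 for the 6 h ratios and held 1 at 2 h. Lower counts at 6 h were thus not confined to dCBP, but such intervals leave out the spread between libraries. In the contrast at 6 h edgeR called COL25A1 with dCBP and with no other compound.

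COL11A2, a minor fibril collagen of cartilage, was the collagen called as higher against DMSO, with dCBP. It had 1.08 and 0.794 CPM in DMSO and 1.19 and 0.772 CPM in NT (2 h first). With dCBP it had 2.58 and 2.37 CPM at 2 h and 2.48 and 1.70 CPM at 6 h, all above the highest control. The fitted rise was 1.17 ± 0.28 (SE) on the log2 scale (adjusted p = 0.0107, edgeR). The dCBP values rest on 23 to 35 counts a library. With A485 COL11A2 had 1.32 and 2.00 CPM at 2 h and 1.36 and 1.81 CPM at 6 h (100 nM first), also above every control. That fitted change was 0.72 (SE 0.28, adjusted p = 0.192, edgeR) and was not called. IHK-44 gave 1.45 and 1.41 CPM at 2 h and 1.37 and 1.02 CPM at 6 h, with a fitted change of 0.37 (SE 0.29) and no call.

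The calls against DMSO lean on its 2 libraries. Without the DMSO library at 6 h no collagen was called for dCBP, and without either 6 h dCBP library 1 was. For IHK-44 COL14A1 was not called without either DMSO library or without the 1000 nM 6 h library. With DMSO and NT pooled as controls, 9 of 33 collagens were called for dCBP, against 41.1% of all genes, and 9 of 33 for IHK-44, against 35.4%.

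**Figure D2:**
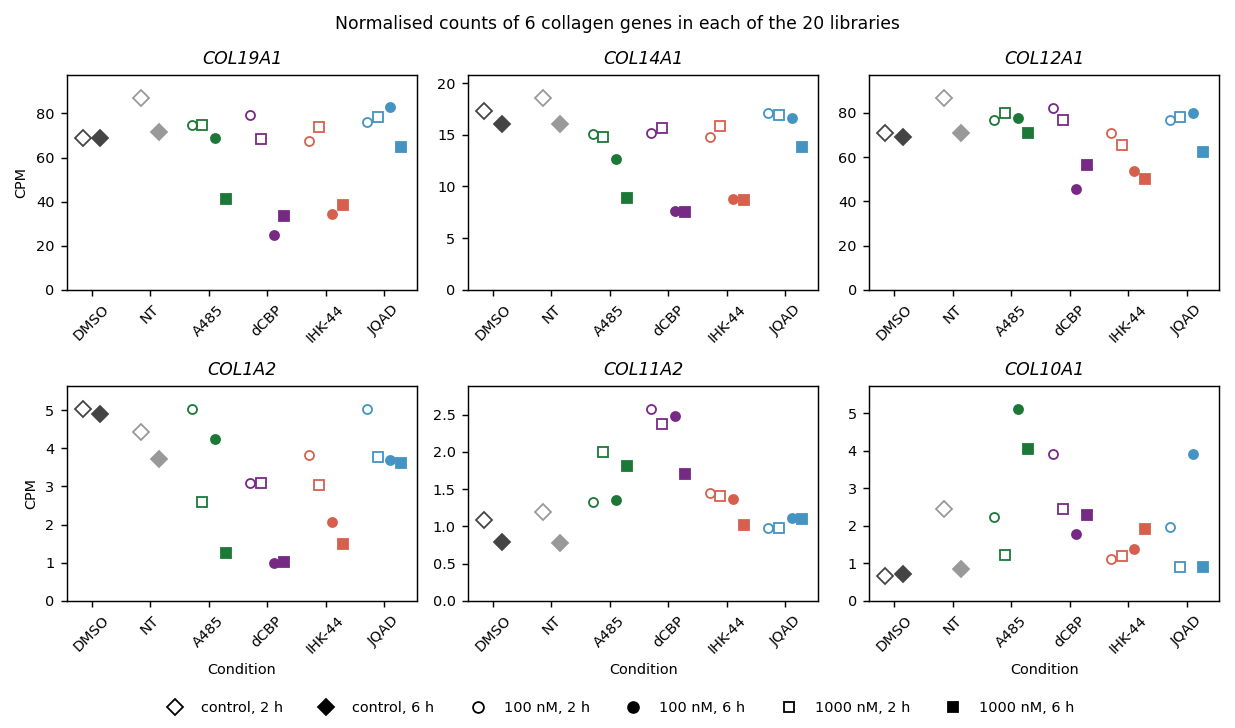
CPM (axes start at 0) of COL19A1, COL14A1, COL12A1, COL1A2, COL11A2 and COL10A1 in each of the 20 libraries, with 1 point per library; open symbols are 2 h and filled symbols 6 h, diamonds are controls, circles 100 nM and squares 1000 nM. COL19A1 at 6 h was 24.8 to 38.6 CPM with dCBP and IHK-44, below every control, and COL10A1 spreads widely, from 0.66 CPM in DMSO to 5.12 CPM with 100 nM A485 at 6 h.

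The second comparison asked whether the compounds differ from each other at matched doses and times. An F-test for any difference among the 4 compounds called 5 of 33 collagens (COL3A1, COL4A1, COL11A2, COL12A1 and COL14A1), against 29.6% of all genes. Of the 6 pairs of compounds, each adjusted over genes and not over pairs, only those of dCBP and IHK-44 with JQAD gave calls. Between dCBP and JQAD 8 of 33 collagens differed, 7 lower with dCBP, against 35.3% of all genes, 16.4% lower. The 7 were COL1A2, COL3A1, COL4A1, COL6A6, COL14A1, COL19A1 and COL24A1, and COL11A2 was higher. Between IHK-44 and JQAD 8 of 33 differed, all lower with IHK-44, against 32.5% of all genes and 16.1% lower. They were COL3A1, COL4A1, COL6A3, COL6A6, COL12A1, COL14A1, COL15A1 and COL19A1. These pairs share the JQAD libraries. Without any 1 of the 6 h libraries of dCBP or JQAD the first count was 2 or 3, and without any 1 of those of IHK-44 or JQAD the second was 1 to 4. With dose and time as a block in the treated libraries, COL24A1 was not called for dCBP against JQAD (log2 difference -0.40, adjusted p = 0.0785, edgeR). The F-test count was 1 without 1000 nM IHK-44 or either JQAD library at 6 h.

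The abundant chains differed by small steps between compounds. COL3A1 had 2466.0 to 3002.3 CPM over the 4 JQAD libraries, 2178.9 to 2684.1 CPM with dCBP and 2295.5 to 2627.2 CPM with IHK-44, so the ranges overlapped. The dCBP value was lower than that of JQAD by -0.27 on the log2 scale (SE 0.08, adjusted p = 0.0214, edgeR), and the IHK-44 value by -0.27 (SE 0.08, adjusted p = 0.0224, edgeR). COL4A1 was lower by -0.22 with dCBP and by -0.27 with IHK-44 than with JQAD. COL11A2 was 1.01 ± 0.22 (SE) log2 units higher with dCBP than with JQAD (adjusted p = 0.00377, edgeR). JQAD kept COL11A2 at 0.977 to 1.11 CPM in its 4 libraries, inside the range of the controls.

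The pairs without calls were A485 with dCBP (0 of 33, 3 at an unadjusted p under 0.05, 0 with DESeq2; 0.724% of all genes, 0.475% lower and 0.249% higher), A485 with IHK-44 (0, 4 unadjusted, 1 with DESeq2; 0.882%), A485 with JQAD (0, 4 unadjusted, 0 with DESeq2; 4.91%, 1.7% lower and 3.21% higher) and dCBP with IHK-44 (0, 2 unadjusted, 0 with DESeq2; 0.0%). For dCBP less IHK-44 the 95% interval of the log2 difference was -0.18 to 0.18 for COL3A1, -0.45 to 0.32 for COL14A1, -0.59 to 0.42 for COL19A1 and -1.15 to 0.41 for COL1A2. Of these 4, only the interval of COL1A2 reaches the size of a change called for that gene.

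The third comparison asked whether the response depends on time. Relative to the controls, COL14A1 and COL19A1 lay lower at 6 h than at 2 h with both dCBP and IHK-44, and COL22A1 did so with IHK-44. COL22A1 was not lower at 2 h with IHK-44, with 26 counts against 17 in the controls, and at 6 h it had 2 against 22. The interaction of time and compound called 2 of 33 collagens for dCBP, against 9.06% of all genes (6.4% lower, 2.66% higher), and 3 of 33 for IHK-44, against 9.89% (7.76% lower). It called 0 for A485 (4 unadjusted, 0 with DESeq2; 0.00754% of all genes) and 0 for JQAD (1 unadjusted, 0 with DESeq2; 0.0%). The interaction was -0.96 ± 0.22 (SE) for COL14A1 and -1.30 ± 0.28 for COL19A1 with dCBP, and -0.76 ± 0.22 and -0.92 ± 0.28 with IHK-44, in log2 units (adjusted p = 0.0155, 0.0113, 0.0378 and 0.0458, edgeR). Without the DMSO library at 2 h, the NT library at 6 h or the 100 nM dCBP library at 2 h the number for dCBP was 0, and without the 100 nM IHK-44 library at 6 h the number for IHK-44 was 0. Without any 1 of the DMSO or NT libraries it was 1.

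COL19A1 is a fibril-associated collagen found in basement membrane zones of differentiating muscle and brain. It had 69.1 CPM in DMSO at both times and 87.2 and 71.8 CPM in NT at 2 h and 6 h. At 2 h the 8 treated libraries had 67.4 to 79.1 CPM, within or just below the controls. At 6 h dCBP gave 24.8 CPM (100 nM) and 33.4 CPM (1000 nM), and IHK-44 gave 34.6 and 38.6 CPM. A485 gave 69.0 CPM at 100 nM and 41.3 CPM at 1000 nM, and JQAD 83 and 65.0 CPM. The libraries far below the controls were those of dCBP and IHK-44 at both doses and of A485 at the higher dose, all at 6 h, and 1000 nM JQAD lay just below them.

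A contrast chosen after these values were seen took each time by itself, against the DMSO and NT libraries of that time. At 2 h no collagen was called for any compound (A485 0 unadjusted, dCBP 1, IHK-44 1, JQAD 0, and 0 for each with DESeq2), while 0.0452% of all genes were called for A485, 5.63% for dCBP (2.67% lower), 4.88% for IHK-44 and 0.0% for JQAD. At 6 h the share of all genes called was 45.5% for dCBP, 42.1% for IHK-44 and 16.6% for A485. dCBP lowered 9 of 33 collagens (22.4% of all genes were lower) and raised 1 (23.2% higher), and IHK-44 lowered 11 of 33 (21.4%) and raised 0 (20.7%). A485 lowered 2 (8.7%) and raised 1 (7.87%), and JQAD gave 0 calls (2 unadjusted, 0 with DESeq2), as in 0.0% of all genes. The median fitted change of the 33 collagens at 6 h was -0.28 with dCBP and -0.37 with IHK-44, beside 0.06 for all genes in either case, and -0.27 with A485, beside 0.02. Of the 13 collagens lowered by dCBP or IHK-44, 7 were lowered by both, which is 7 of 9 for dCBP and 7 of 11 for IHK-44. These comparisons share their control libraries. The IHK-44 count was 6 without the 1000 nM library of 6 h and 7 without the DMSO or NT library of 6 h.

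**Figure D3:**
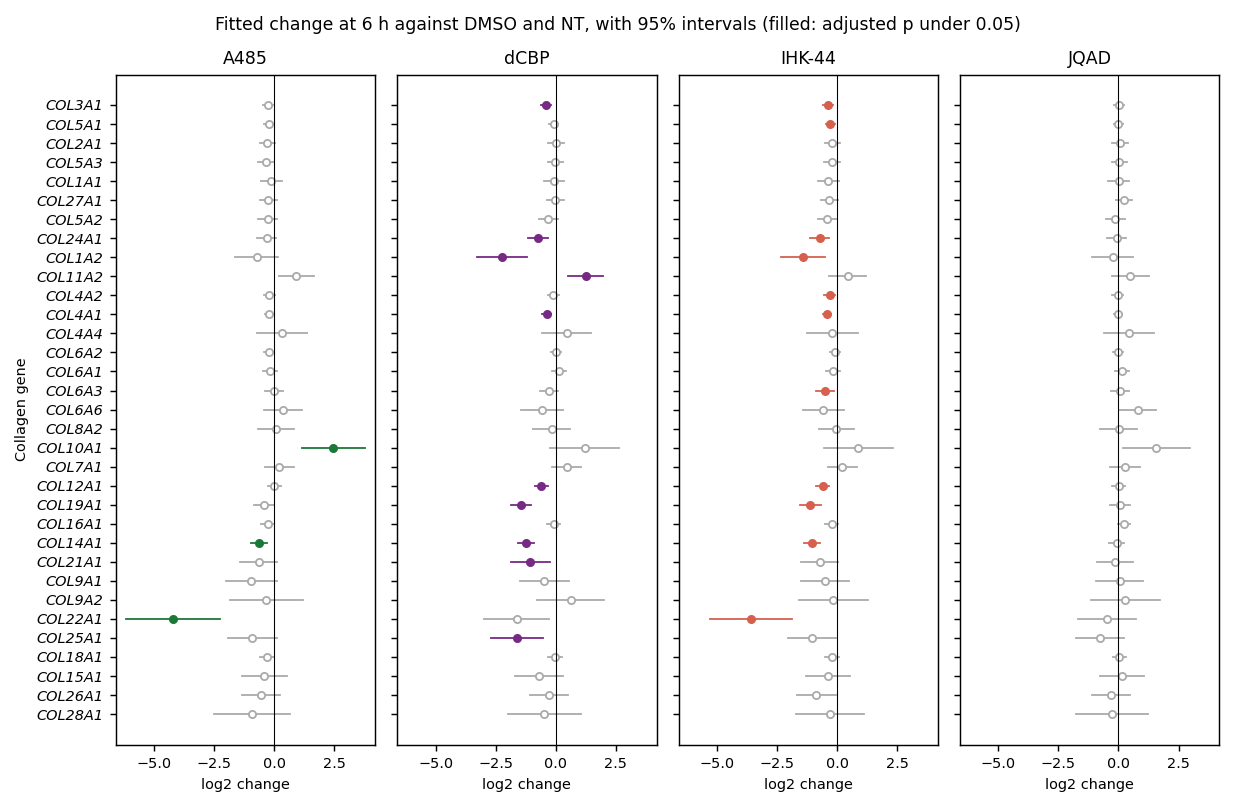
Fitted log2 change of the 33 tested collagen genes at 6 h against the DMSO and NT libraries of that time, 1 panel per compound; lines are 95% intervals and filled points have an adjusted p under 0.05. With dCBP 9 points are filled on the lower side and 1 on the higher, with IHK-44 11 on the lower side, and with JQAD none.

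Among the fibrillar genes the abundant ones changed by small amounts and COL1A2 by a large one. COL3A1 had 2678.0 CPM in DMSO and 2714.1 CPM in NT at 6 h, and 2178.9 to 2395.5 CPM with dCBP or IHK-44, with no overlap. The fitted change at 6 h was -0.39 for both compounds (SE 0.10 in each case, adjusted p = 0.00488 and 0.00581, edgeR). COL5A1 had 1181.6 and 1175.9 CPM in these controls, 1087.5 and 1094.3 CPM with IHK-44, and 1340.8 and 1117.3 CPM with dCBP, on either side of the controls. Its fitted change was -0.28 ± 0.09 (SE) with IHK-44 (adjusted p = 0.0219, edgeR) and -0.09 with dCBP (interval -0.29 to 0.10). The fits scale the libraries by TMM and CPM does not, and here the fitted falls were larger than those in CPM. With IHK-44 at 6 h the log2(CPM + 1) ratio to DMSO was -0.12 and -0.11 for COL5A1 and -0.2 and -0.22 for COL3A1 (100 nM first). The median gene lay 0.178 and 0.217 above DMSO on that scale. COL24A1, a minor fibrillar collagen, had 5.62 and 6.5 CPM in controls and 3.33 to 4.72 CPM with dCBP or IHK-44, and fell by 0.75 and 0.72 (SE 0.19 in both). COL1A2 fell by 2.24 ± 0.49 (SE) with dCBP and by 1.43 ± 0.43 with IHK-44. COL2A1, COL5A3, COL1A1, COL27A1 and COL5A2 were not called at 6 h, with fitted changes between -0.40 and 0.23 over the 4 compounds.

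Of the 8 tested fibril-associated genes 4 were lower at 6 h with dCBP (22.4% of all genes) and 4 with IHK-44 (21.4%). Their median change was -0.83 and -0.67, beside 0.06 for all genes in either case. COL12A1, which links fibrils to the surrounding matrix in muscle and tendon, had 68.9 CPM in DMSO and 70.9 CPM in NT at 6 h. It had 45.7 and 56.4 CPM with dCBP, 53.6 and 50.0 CPM with IHK-44, 77.7 and 70.7 CPM with A485 and 80.1 and 62.5 CPM with JQAD (100 nM first). Its fitted change was -0.61 with dCBP, -0.60 with IHK-44 (SE 0.13 in both), 0.00 with A485 (interval -0.27 to 0.27) and 0.02 with JQAD. COL19A1 fell by 1.44 ± 0.20 (SE) with dCBP and by 1.11 ± 0.20 with IHK-44, and COL14A1 by 1.23 ± 0.16 and 1.04 ± 0.16. COL14A1 also fell with A485, by 0.65 ± 0.16, from 16 CPM in both controls to 12.7 CPM at 100 nM and 8.90 CPM at 1000 nM. COL21A1 was called for dCBP alone (fall by 1.05, SE 0.38), from 2.38 and 2.06 CPM to 1.42 and 0.959 CPM.

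COL22A1, a collagen of the junction between muscle and tendon, stood at the edge of detection. At 6 h the 2 controls held 22 counts together. The 2 A485 libraries held 1 count, a ratio of CPM of 0.0454 (exact 95% interval 0.0011 to 0.281), the 2 IHK-44 libraries 2 counts (0.0834, 0.0095 to 0.339), the 2 dCBP libraries 7 counts (0.352, 0.127 to 0.854) and the 2 JQAD libraries 15 counts (0.721, 0.348 to 1.45). These intervals cover counting error only. At 2 h the same compounds held 17, 26, 8 and 24 counts, against 17 in the controls, and none of the 2 h ratios had an interval that left out 1 (IHK-44 1.74, 0.911 to 3.43; JQAD 1.56, 0.801 to 3.09; A485 1.02, 0.488 to 2.12; dCBP 0.567, 0.212 to 1.39).

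The promoters of COL12A1 and COL19A1 are shown because both genes lie on chromosome 6, belong to the same class, had nearly the same level in the controls and fell at 6 h with dCBP and IHK-44. They differed with 1000 nM A485 at 6 h, where COL19A1 had 41.3 CPM and COL12A1 70.7 CPM. The bases before the RefSeq start of each gene (GRCh38.p14) are given 5′ to 3′ on the gene's own strand, with CG dinucleotides in capitals.
COL19A1, chr6:69866306-69866555, plus strand: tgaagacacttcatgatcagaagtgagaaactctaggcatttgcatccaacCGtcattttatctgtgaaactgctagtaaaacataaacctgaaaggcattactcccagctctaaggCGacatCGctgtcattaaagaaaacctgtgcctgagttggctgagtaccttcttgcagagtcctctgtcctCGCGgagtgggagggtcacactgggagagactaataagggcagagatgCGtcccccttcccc
COL12A1, chr6:75206054-75206303, minus strand: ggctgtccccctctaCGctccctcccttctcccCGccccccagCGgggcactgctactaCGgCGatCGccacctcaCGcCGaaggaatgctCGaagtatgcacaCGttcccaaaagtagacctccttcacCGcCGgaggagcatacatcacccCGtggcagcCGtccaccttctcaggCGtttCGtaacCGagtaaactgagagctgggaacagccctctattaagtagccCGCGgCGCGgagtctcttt
The COL12A1 sequence held 21 CG dinucleotides in 250 bases, 0.95 of the number that its C and G content gives by product, and that of COL19A1 held 6, or 0.41. RefSeq windows (250 bases before to 50 after the start) were at hand for 32 of the 44 collagens, of which 25 passed the filter. Of the 13 collagens that fell at 6 h with dCBP or IHK-44, 9 had a window, while COL1A2, COL3A1, COL14A1 and COL22A1 had none. In the 9 windows the median ratio of observed to computed CG was 0.88 (0.16 to 1.1). In the windows of the other 16 tested collagens it was 0.66 (0.09 to 1.08), and over 10785 tested genes it was 0.84. For a collagen with several windows the most upstream start was taken, and for all genes the window listed first. The letters TATAAA, on either strand, were in 15.6% of the 32 collagen windows and 12.0% of 27305 windows of all genes. GGGCGG, the core bound by SP1, was in 53.1% and 44.6%, and CAGCTG, an E-box of the kind bound by myogenic factors, in 15.6% and 17.7%. COL12A1 held GGGCGG and CAGCTG in its window, and COL19A1 held none of the 3.

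The type IV genes COL4A1 and COL4A2 lie head to head on chromosome 13 and share the short stretch between their starts as a promoter, and their chains join as 2 alpha 1 chains with 1 alpha 2 chain. The 126 bases between the RefSeq starts are shown because the levels of the 2 genes are compared next. They hold 20 CG dinucleotides, in capitals, and 80.2% C or G.
COL4A1 and COL4A2, chr13:110307158-110307283, plus strand, 5′ to 3′ towards COL4A2: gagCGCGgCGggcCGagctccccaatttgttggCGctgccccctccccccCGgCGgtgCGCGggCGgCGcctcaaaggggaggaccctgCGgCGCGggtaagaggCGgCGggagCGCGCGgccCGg
COL4A1 had 539.4 and 531.7 CPM in DMSO and NT at 6 h, and 470.4 and 447.8 CPM with dCBP and 455.8 and 447.3 CPM with IHK-44. COL4A2 had 602.1 and 579.0 CPM in these controls, 676.6 and 550.7 CPM with dCBP and 536.2 and 533.1 CPM with IHK-44 (100 nM first). COL4A1 thus lay below the controls in all 4 libraries, and COL4A2 in 3 of them. At 6 h COL4A1 fell by 0.38 with dCBP and by 0.41 with IHK-44 (SE 0.08 in both, adjusted p = 0.00174 and 0.00092, edgeR). COL4A2 fell by 0.31 with IHK-44 (SE 0.10, adjusted p = 0.022, edgeR) and changed by -0.10 with dCBP (interval -0.32 to 0.12). These fits also use TMM scaling, and the falls in CPM were smaller. With IHK-44 at 6 h the log2(CPM + 1) ratio to DMSO was -0.24 and -0.27 for COL4A1 and -0.17 and -0.18 for COL4A2 (100 nM first).

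The ratio of COL4A1 to COL4A2 CPM was 0.839 to 0.918 in the 4 controls. It was 0.813 and 0.695 with dCBP at 6 h (1000 nM and 100 nM) and 0.839 and 0.85 with IHK-44 at 6 h. Only the dCBP libraries at 6 h and 100 nM IHK-44 at 2 h (0.823) lay below the controls. No test was made of this ratio.

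**Figure D4:**
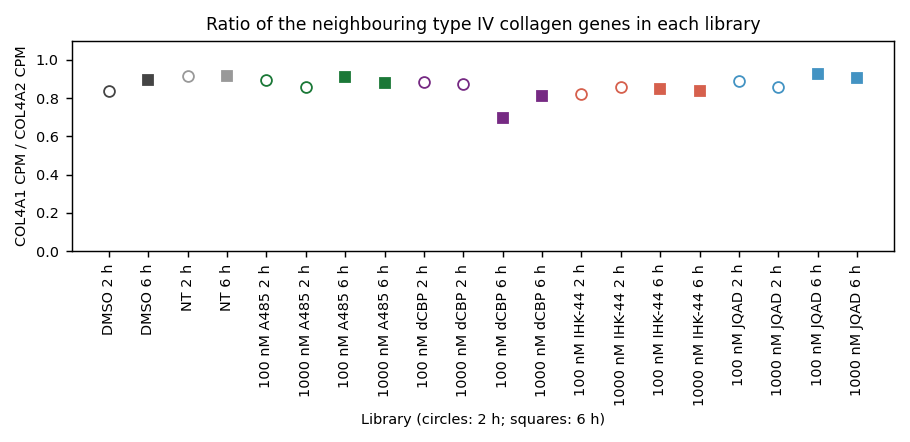
Ratio of COL4A1 CPM to COL4A2 CPM (axis from 0) in each of the 20 libraries, circles at 2 h and squares at 6 h. The points lie between 0.813 and 0.926, apart from 100 nM dCBP at 6 h at 0.695.

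Other neighbouring pairs were unequal. The other type IV pairs, known from kidney and eye basement membranes, were at the limit of detection, with COL4A3, COL4A5 and COL4A6 at 10 counts or fewer in every library. COL4A4, next to COL4A3, had 0.772 to 1.37 CPM in controls and no call, and it overlaps RHBDD1. COL6A1 and COL6A2, on chromosome 21, kept a ratio of CPM of 0.0972 to 0.14 over the 20 libraries, and neither was called. COL3A1 exceeded its neighbour COL5A2 by 257.0 to 425.3 times in CPM. COL6A3, on another chromosome than its type VI partners, fell by 0.49 with IHK-44 at 6 h (SE 0.18, adjusted p = 0.0365, edgeR), from 9.99 and 9.07 CPM to 6.85 and 8.42 CPM.

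COL10A1, a network collagen known from hypertrophic cartilage, rose with A485 at 6 h by 2.45 ± 0.62 (SE) on the log2 scale (adjusted p = 0.0156, edgeR). It had 0.728 and 0.837 CPM in DMSO and NT at 6 h, and 5.12 and 4.05 CPM with 100 nM and 1000 nM A485. It was variable elsewhere, with 2.44 CPM in NT at 2 h against 0.66 CPM in DMSO at 2 h, 3.90 CPM with 100 nM dCBP at 2 h and 3.92 CPM with 100 nM JQAD at 6 h. The gene lies within the span of NT5DC1, which had 25.4 to 29.8 CPM in controls and 34.0 and 36.0 CPM in the A485 libraries at 6 h. It also had 27.9 and 40.9 CPM with dCBP and 40.4 and 36.6 CPM with IHK-44 at 6 h (100 nM first), where COL10A1 had 1.77, 2.29, 1.37 and 1.92 CPM. The sources used here do not state whether counting used the strand. The share of this overlap in the COL10A1 values was not tested. The A485 calls at 6 h were 0 without the DMSO library, the NT library or the 1000 nM library of that time, and 7 without the 100 nM library.

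Collagens have long transcripts, and the libraries differed in how their ratios to DMSO ran with transcript length. Across 12174 genes Spearman's rho between the log2 ratio and transcript length ran from -0.276 to 0.284 over the 18 libraries set against DMSO (the extremes were 1000 nM JQAD at 6 h and NT at 2 h), and from -0.26 to 0.255 in A485, dCBP and IHK-44 libraries at 6 h. With an offset for this trend dCBP kept 8 of its 10 calls at 6 h and IHK-44 7 of 11. With dCBP the log2 change of COL3A1 went from -0.39 to -0.25 and that of COL4A1 from -0.38 to -0.19 (adjusted p = 0.093 and 0.145, edgeR). With IHK-44 COL3A1 went from -0.39 to -0.27, COL4A2 from -0.31 to -0.16, COL5A1 from -0.28 to -0.09 and COL6A3 from -0.49 to -0.29 (adjusted p = 0.071, 0.329, 0.596 and 0.193, edgeR). COL4A1 kept its call with IHK-44, at -0.26 (adjusted p = 0.0474, edgeR). COL1A2, COL12A1, COL14A1, COL19A1 and COL24A1 kept their falls with both compounds.

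The fourth comparison asked whether dose mattered. No collagen was called between 1000 nM and 100 nM for A485 (3 unadjusted; 0.929% of all genes), dCBP (1 unadjusted; 0.0%), IHK-44 (2 unadjusted; 0.107%) or JQAD (2 unadjusted; 0.0%) by edgeR, nor by DESeq2. The nearest was COL1A2 with A485, at 5.04 and 4.23 CPM with 100 nM (2 h and 6 h) and 2.59 and 1.25 CPM with 1000 nM, a difference of -1.38 ± 0.29 (SE; adjusted p = 0.0566, edgeR). Both 1000 nM values lay below all 4 controls and the 100 nM values did not. For COL19A1 the A485 difference was -0.43 (interval -0.86 to -0.01, adjusted p = 0.462, edgeR). With dCBP the dose difference was 0.00 for COL1A2 (interval -0.73 to 0.74), -0.01 for COL14A1 (-0.41 to 0.39) and 0.07 for COL19A1 (-0.37 to 0.50).

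In single libraries, set against time-matched DMSO on the log2(CPM + 1) scale, few collagens passed 2-fold. Of the 29 collagens with a mean of at least 1 CPM over the 20 libraries, 3 were lower with 100 nM dCBP at 6 h (COL1A2, COL19A1 and COL25A1), against 6.97% of all genes, and 2 with 1000 nM dCBP at 6 h (COL1A2 and COL19A1), against 6.19%. COL1A2 was the 1 collagen lower with 1000 nM IHK-44 at 6 h (6.78% of all genes) and with 1000 nM A485 at 6 h (3.87%). The 1 gene past 2-fold on the higher side was COL10A1, in 5 treated libraries and in NT at 2 h, where 0.271% of all genes were higher. On this scale the median gene lay 0.16 to 0.217 log2 units above DMSO in the dCBP and IHK-44 libraries at 6 h, and the median collagen -0.222 to -0.082, so the collagens lay further below the median gene than below 0.

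**Figure D5:**
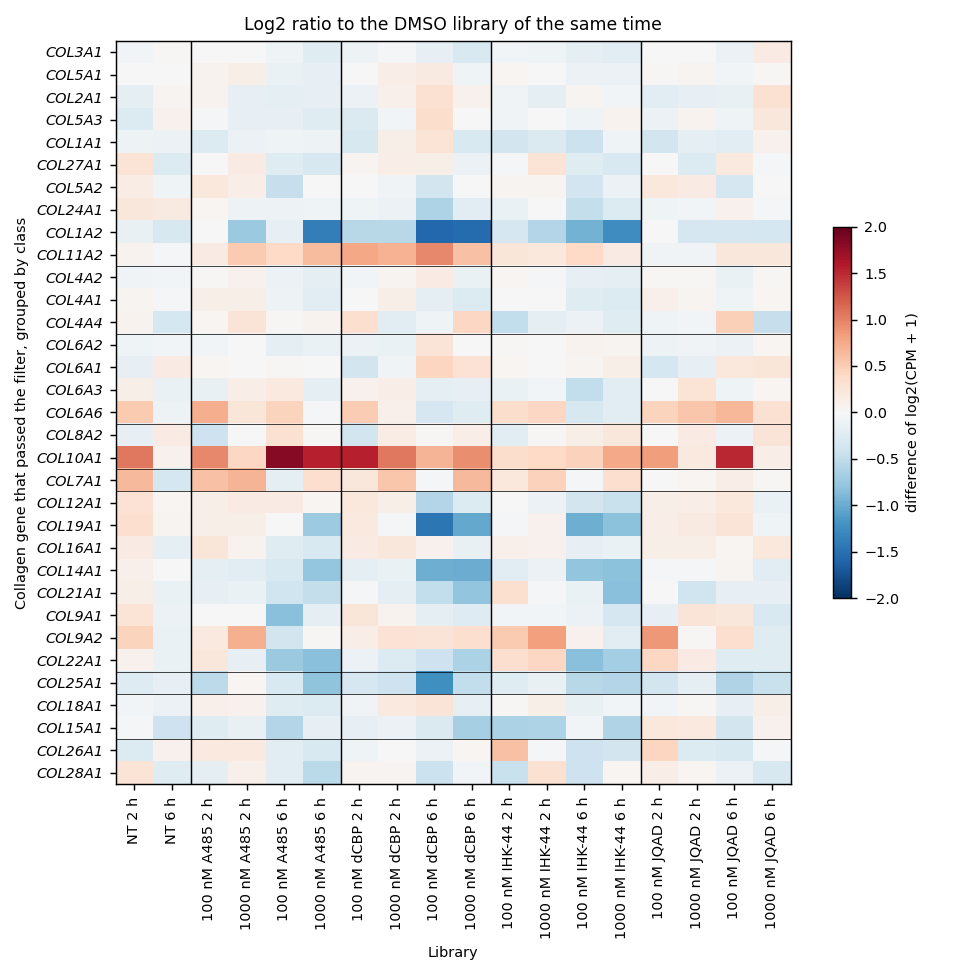
Log2 ratio, on the log2(CPM + 1) scale, of the 33 tested collagen genes (rows, by class) in 18 libraries (columns) to time-matched DMSO; blue is lower and red higher. The 6 h columns of dCBP and IHK-44 are blue for COL1A2, COL14A1 and COL19A1, and COL10A1 is red in scattered columns, NT at 2 h among them.

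Genes that make, export, bind and break down collagen were counted in the same fit against DMSO, in which 11.8% of all genes were lower and 11.8% higher with dCBP, and 9.21% lower and 7.74% higher with IHK-44. For dCBP 2 of 19 tested genes of collagen modification and folding were lower and 0 higher, with a median log2 change of -0.06 beside 0.05 for all genes. The share that was lower is close to that of all genes, and the share that was higher is below it. Both are prolyl hydroxylases, P3H2 (fall by 0.47, SE 0.14) and P4HA1 (fall by 0.29, SE 0.09). Of 11 genes of procollagen export 2 were lower and 2 higher. SAR1B, the small GTPase of the export coat, had 63.2 to 68.2 CPM in DMSO and NT at 6 h and 93.1 to 126.5 CPM with dCBP or IHK-44, and PREB, its exchange factor, rose by 0.42 (SE 0.12), while TFG fell by 0.21. Of 12 genes of processing and cross-linking 0 were called by edgeR for dCBP (1 at an unadjusted p under 0.05, 1 with DESeq2) and 0 for IHK-44 (2 unadjusted, 2 with DESeq2). In the contrast at 6 h 3 of the 12 were lower and 1 higher with dCBP (22.4% and 23.2% of all genes), and 6 lower and 0 higher with IHK-44 (21.4% and 20.7%).

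Of 10 tested collagen receptors 4 were lower with dCBP, against 11.8% of all genes, and 3 lower and 1 higher with IHK-44, against 9.21% and 7.74%. ITGA1, the alpha chain of a collagen-binding integrin, fell by 0.47 with dCBP (SE 0.14), its partner ITGB1 by 0.27 (SE 0.07), and the receptor kinase DDR2 by 0.49 (SE 0.14). DDR2 had 103.6 and 106.7 CPM in controls at 6 h and 62.2 to 81.9 CPM with dCBP or IHK-44. Of 9 degrading enzymes and inhibitors 2 were lower with dCBP (TIMP2 by 0.34, MMP2 by 0.37) and 1 higher (MMP15 by 0.98, SE 0.27).

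Other basement membrane genes had 3 of 14 lower with dCBP (11.8% of all genes) and 3 of 14 with IHK-44 (9.21%), and 0 higher. LAMC1, LAMB1 and NID1, laminin chains and the linker nidogen, fell by 0.33, 0.41 and 0.22 with dCBP and by 0.35, 0.47 and 0.22 with IHK-44. In the TGF-beta pathway, a known inducer of collagen genes, 8 of 15 genes were lower with dCBP (11.8% of all genes) and 7 of 15 with IHK-44 (9.21%), and 0 higher. The median log2 change was -0.57 and -0.52, beside 0.05 and 0.04 for all genes. TGFBR2, the type II receptor, had 123.0 to 132.3 CPM in the 4 controls and 52.4 to 92.7 CPM with dCBP or IHK-44, and fell by 0.92 (SE 0.19) and 0.87 (SE 0.19). SMAD7, an inhibitor of the pathway, fell by 1.82 and 2.58, and CCN2, a matricellular target, by 1.43 and 1.54. With JQAD, for which 0.0% of all genes were called, none of these genes was called by edgeR. The muscle and rhabdomyosarcoma markers moved alongside, with 6 of 9 lower and 1 higher for dCBP (11.8% and 11.8% of all genes) and 4 lower and 1 higher for IHK-44 (9.21% and 7.74%). Of 5 tested fibroblast markers 0 were called by edgeR against DMSO for dCBP (2 unadjusted, 2 with DESeq2) and 0 for IHK-44 (2 unadjusted, 1 with DESeq2). In the contrast at 6 h 3 of the 5 were lower with dCBP (22.4% of all genes) and 3 with IHK-44 (21.4%). Their part in the collagen values was not tested.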

How the data were processed

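RNA-seq of RH4 cells was used from 20 libraries, 1 per condition. The submitters' processing notes name STAR 2.5.3a, RSEM 1.3.3 and the builds hg38 and mm10. Per the file headers, the deposited files give expected counts and TPM for 18980 coding genes, with a normalised count. Deposited FPKM values were not used. The deposited normalised count equals CPM over these rows, within 2.2e-11. The coding rows hold 27.9 to 53.9% of the TPM total, so TPM served for levels in controls and CPM for comparisons. Depth was 13466631 to 16799327 coding counts. The p-values measure only the spread between these libraries. In the fit by compound this spread holds differences between doses and differences in response between 2 h and 6 h. In the fit by time it holds differences between doses. The rest of the spread may be technical.

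Expected counts (88.2% whole) were rounded and tested with edgeR 4.0.16 in R 4.3.3 (TMM, filterByExpr, quasi-likelihood test, Benjamini-Hochberg adjustment over all genes, threshold 0.05): by compound over all libraries, by time with DMSO and NT as controls, and by dose in the treated libraries. The contrasts at each time, the offset for transcript length and a block for dose and time were added after the data were seen. DESeq2 1.42.0, limma 3.58.1, other controls, filters and scalings, and each library left out were alternatives. The fits were tested on simulated data with 200 changed genes. At a log2 change of 0.5 they recovered 10% for dCBP against DMSO and 14.5% for dCBP at 6 h. They recovered 0% for time with dCBP and 5% for the A485 dose. At a log2 change of 1 these shares were 79.5%, 82%, 61.5% and 85.5%. A count of 0 therefore says little about changes as small as 0.5. Errors are SD for levels and SE for log2 changes, and intervals are 95%.

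The collagens and gene lists were chosen with earlier results of these data known. The rule for named collagens took those called against DMSO, in the F-test, by dose or by time, the 10 highest by TPM, neighbouring pairs and those not expressed, and from each related list up to 3 genes with the smallest p for dCBP. COL1A1, COL5A3, COL6A3, COL6A6, COL10A1, COL15A1, COL21A1, COL24A1 and COL27A1 were named after their values were seen.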

Additional observations from a re-analysis of the deposited data

Results flagged for a closer look

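Each result here is a difference between compounds, or between times in the response to a compound. Each passed the test of the difference itself (edgeR's quasi-likelihood test, Benjamini-Hochberg adjusted over all genes). Between dCBP and JQAD the adjusted p was 0.0213 for COL1A2, 0.0214 for COL3A1, 0.00377 for COL11A2, 0.0478 for COL24A1, 0.0357 for COL4A1, 0.0297 for COL6A6, 0.0125 for COL14A1 and 0.0205 for COL19A1. COL11A2 was higher with dCBP and the others lower.

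Between IHK-44 and JQAD it was 0.0224 for COL3A1, 0.0156 for COL4A1, 0.02 for COL6A3, 0.0398 for COL6A6, 0.0148 for COL12A1, 0.021 for COL14A1, 0.0356 for COL19A1 and 0.0249 for COL15A1, all lower with IHK-44. In the F-test among the 4 compounds it was 0.0494 for COL3A1, 0.0115 for COL11A2, 0.0464 for COL4A1, 0.0281 for COL12A1 and 0.0341 for COL14A1.

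The interaction of time and compound gave 0.0155 for COL14A1 and 0.0113 for COL19A1 with dCBP. With IHK-44 it gave 0.0378 for COL14A1, 0.0458 for COL19A1 and 0.0115 for COL22A1.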

How the results depend on the processing

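No pairing by replicate was possible because no replicate number joins libraries, each condition having 1. The dose comparison did pair the doses within each compound and time. Libraries of different compounds do share dose and time: with these as a block, an alternative chosen after seeing the data, the counts were 7 for dCBP against JQAD (8), 8 for IHK-44 against JQAD (8), 4 for the F-test (5) and 0 for the other 4 pairs. Of 577 values of single genes under an alternative, 433 kept direction and side of the threshold, 144 kept direction but missed the threshold and 0 reversed. Of 336 counts, 275 stayed within 1.5 times. The cause of the other shifts was not tested.

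Against DMSO, the count for dCBP (4) was 9 with DMSO and NT pooled and 2 with only its own libraries and the controls. That for IHK-44 (1) was 9 and 0 in these fits, 3 with DESeq2 and 0 with limma, and that for A485 (0) was 1 with DESeq2. DESeq2 gave 1 for A485 against IHK-44 (0), 9 for the F-test (5), 5 for A485 at 6 h (3) and 4 for time with dCBP (2). The length offset gave 7 for IHK-44 at 6 h (11), and no filter gave 1 for the A485 dose (0). Past 2-fold lower (7), a pseudocount of 0.1 gave 18 and a threshold of 1.5-fold 26. Past 2-fold higher (5), these gave 16 and 20, NT as control 3 and TPM 0. At a mean TPM of at least 1, 18 collagens were expressed (29).

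Leaving out each library gave 0 to 5 for dCBP and 0 to 1 for IHK-44 against DMSO, 2 to 9 for dCBP against JQAD, 1 to 10 for IHK-44 against JQAD and 1 to 7 for the F-test. It gave 0 to 7 for A485, 8 to 9 for dCBP and 6 to 8 for IHK-44 at 6 h, and 0 to 4 for time with dCBP and 0 to 2 with IHK-44. Genes at a few counts, such as COL22A1, are limited by depth.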
